A study of Mus musculus with 6 samples.

Results

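Chemokines and their receptors were examined in primary mouse keratinocytes with and without active NFATc1. The 55 genes were taken by symbol (Cxcl, Ccl, Cx3c, Xcl1, Cxcr, Ccr and Ackr genes with an array row of their own) out of 19935 genes measured. They comprised 13 CXC ligands, 19 CC ligands, 2 ligands of the CX3C and XC classes, 17 receptors and 4 atypical receptors. The cells were wild-type keratinocytes of CD1 mice, kept in low-calcium medium, and all cultures received a retrovirus. It carried, in 3 cultures, caNFATc1, a human NFATc1 whose autoinhibitory domain is mutated so that it is always active. The 3 vector control cultures received the empty MSCV virus. The sources used here give neither the age of the mice, nor the time after infection, nor the share of cells infected. Total RNA of each culture was hybridised to 1 array.

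Chemokines are small secreted proteins that direct the migration of cells. They bind heparan sulfate on cell surfaces and matrix, which holds them in place, and signal through G protein-coupled receptors on leukocytes and other cells. Atypical receptors bind chemokines without that signal and remove them. In skin, keratinocytes are themselves a source of chemokines, which recruit neutrophils, monocytes and T cells after injury or infection, while most of the receptors belong to the arriving leukocytes. NFAT factors switch on cytokine genes in T cells and often bind beside other factors such as AP-1.

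All values below are on the log2 scale and relative to the median of a gene's row over the 6 arrays, so they show how arrays differ and not how abundant a transcript was. For the same reason the keratinocyte identity of the cultures could not be checked by the level of its markers, and a gene near 0 on all arrays may be evenly expressed or not expressed. Differences are caNFATc1 minus vector control. Same-numbered arrays of the groups shared their deviations from the group means, with correlations between 0.57 and 0.71 across all genes and between 0.35 and 0.53 across the 55 chemokine-family genes, and the other pairings lay between -0.60 and 0.18. The replicate number was therefore also fitted as a block (below, "with the block"), and the difference within each same-numbered pair is given. Replicate 1 of both groups stood apart: Xist, the RNA of the inactive X chromosome, was at -6.002 and -6.053 there and between -0.04 and 0.18 on the other arrays. The Y-linked gene Eif2s3y was at 3.002 and 3.77 there and between -0.08 and 0.01 elsewhere. Vim (vimentin) was at -2.98 and -2.92 in replicate 1, and Dsp (desmoplakin) at -2.78 and -2.58 in replicate 3. Rcan1, a direct NFAT target, was higher by 3.61, 3.12 and 3.40 in the 3 pairs. The row of mouse Nfatc1 may not see the human transgene and differed by 0.04.

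Few chemokine-family genes differed between the groups. With the replicate block, Cxcl14 rose and Cxcl5 fell, which is 2 of 55 genes (3.64%) against 6.11% of all genes, so the family's share was no larger than the background. By direction, 1 of 55 rose where 3.73% of all genes did, and 1 fell where 2.38% of all genes did. Without the block limma called 0 of the 55, against 0.216% of all genes (0.206% higher and 0.01% lower). An unadjusted p under 0.05 was found for 5 of the 55 without the block (12.7% of all genes) and for 6 with it (21.5% of all genes). The median difference of the 55 was -0.002, and that of all genes was -0.007. Of the 55, 27 were positive (47.4% of all genes) and 28 negative (52.6% of all genes). In 44 of the 55 the difference was smaller than 0.2, which is 80.0% against 77.3% of all genes. The remaining genes reached further: 7 of the 55 (12.7%) differed by more than 0.5, against 5.66% of all genes. These were Ccl7, Cxcl14, Ccl2, Ccl11, Cxcl16, Cxcl3 and Cxcl5, all of them ligands.

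**Figure D1:**
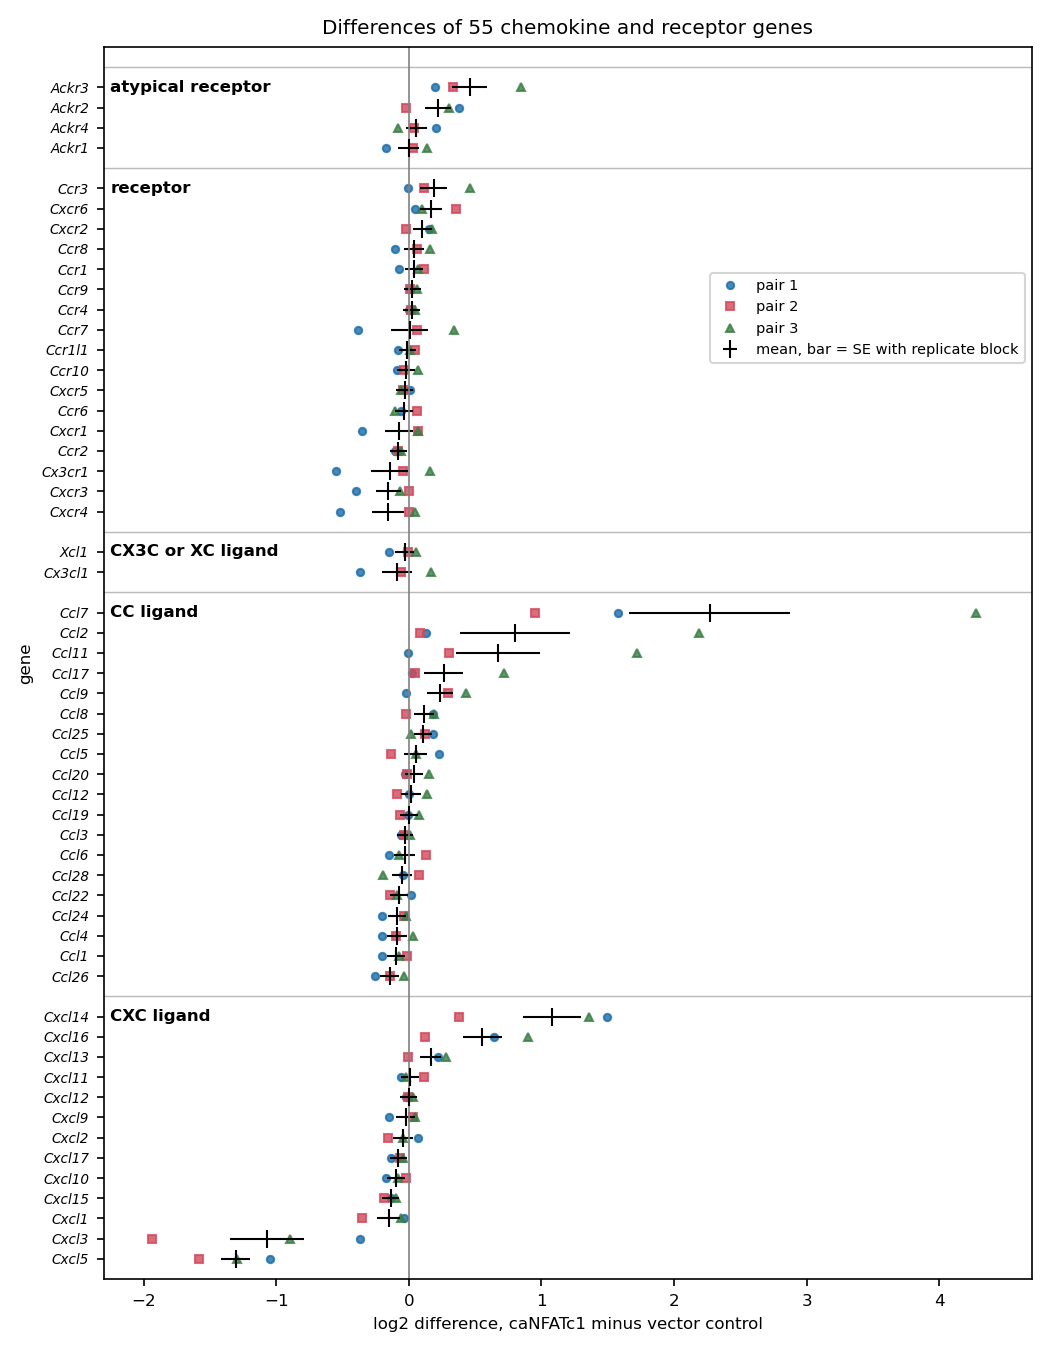
Log2 difference, caNFATc1 minus vector control, of each of the 55 genes, by class (x axis in log2 units); coloured points are the 3 same-numbered pairs and the black mark is their mean with limma's standard error from the fit with the replicate block. Most genes lie close to 0, Cxcl5 and Cxcl3 lie to the left and Ccl7, Ccl2 and Cxcl14 to the right.

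The promoters of 3 CXC ligand genes of a cluster on chromosome 5 and of Cxcl14 are shown because they share a motif or carry the largest differences for which a sequence was at hand. RefSeq promoters (GRCm38.p6, 250 bases before to 50 after the start of the gene) were matched for 41 of the 55 genes, with 43 promoters, and Cxcl5, Ccl7 and Ccl2 were not among them. The first 3 sequences are the 150 bases before the start of Cxcl3 (chr5:90785951-90786100), Cxcl1 (chr5:90891095-90891244) and Cxcl2 (chr5:90903749-90903898), all on the plus strand, with matches to the kappa-B motif, the binding sequence of NF-kappa-B, in capitals. The fourth is the 250 bases before the start of Cxcl14 (chr13:56296552-56296801, minus strand). Its capitals mark a match to the NFAT core (GGAAA) that overlaps a match to an interferon response element. In the first 3 sequences NFAT cores outside the kappa-B match were left in lower case. They begin at -102 and -89 in Cxcl1 and at -73 in Cxcl2, counted from the start of the gene.
Cxcl3: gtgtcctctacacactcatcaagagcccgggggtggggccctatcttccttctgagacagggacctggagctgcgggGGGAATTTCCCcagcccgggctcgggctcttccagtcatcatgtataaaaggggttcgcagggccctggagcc
Cxcl1: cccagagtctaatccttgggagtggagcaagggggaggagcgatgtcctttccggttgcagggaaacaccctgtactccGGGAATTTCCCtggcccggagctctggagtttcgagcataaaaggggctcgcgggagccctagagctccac
Cxcl2: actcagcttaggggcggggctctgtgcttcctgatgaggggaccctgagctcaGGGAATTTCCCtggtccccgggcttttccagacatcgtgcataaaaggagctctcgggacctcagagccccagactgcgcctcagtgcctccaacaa
Cxcl14: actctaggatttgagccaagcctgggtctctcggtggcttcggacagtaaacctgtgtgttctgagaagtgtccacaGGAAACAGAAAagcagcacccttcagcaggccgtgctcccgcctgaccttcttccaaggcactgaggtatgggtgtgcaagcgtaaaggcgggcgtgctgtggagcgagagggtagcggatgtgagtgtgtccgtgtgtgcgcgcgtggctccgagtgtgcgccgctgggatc

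Cxcl3, Cxcl1 and Cxcl2 carry the same 11-base run, GGGAATTTCCC, which reads as the kappa-B motif on both strands. Cxcl15, which lies between Cxcl3 and Cxcl1, has no kappa-B match in its promoter. A kappa-B match was present in 9 of the 43 promoters (20.9%) and in 4.51% of 32851 promoters of the table. The NFAT core, which also lies inside the kappa-B run when read on the other strand, was found in 31 of the 43 (72.1%) and in 61.3% of all promoters, so a match to these 5 letters is common. The AP-1 motif (TGANTCA) was found in 7 of the 43 and in 7.81% of all, and the interferon response element in 3 of the 43, Cxcl14 among them, and in 3.44% of all. A match says only that the letters are present within these 300 bases.

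Cxcl5, a CXC chemokine that attracts neutrophils, was lower in caNFATc1 cells. Its values were 0.30, 1.28 and 0.65 in vector control replicates 1, 2 and 3 and -0.74, -0.30 and -0.64 in caNFATc1 replicates 1, 2 and 3. The lowest control array lay above the highest caNFATc1 array. The difference was -1.31 ± 0.11 (SE with the block, n = 3 pairs, adjusted p = 0.00639), a 2.47-fold lower value, and it was -1.04, -1.58 and -1.29 in the pairs. With any 1 pair left out the block fit still called it, with differences between -1.44 and -1.17. Without the block its SE was 0.26 and its adjusted p 0.122.

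Cxcl3 also belongs to the neutrophil-attracting CXC ligands. It stood at -0.44, 2.02 and 0.81 in the 3 control cultures and at -0.81, 0.09 and -0.09 in the caNFATc1 cultures. The pairs differed by -0.37, -1.93 and -0.90, but the groups overlapped, because control replicate 1 was as low as the caNFATc1 arrays. The difference of -1.07 ± 0.28 did not pass (adjusted p = 0.0907 with the block, 0.567 without). Without control replicate 2 it was -0.45 and without control replicate 1 it was -1.68 (no block), and with the block it ran from -1.42 to -0.63 when 1 pair was left out. Cxcl3 varied more between control cultures than any other of the 55 genes, with a range of 2.47.

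The remaining ligands of this type differed little. The neutrophil-attracting CXC ligands carry the residues Glu-Leu-Arg (ELR) before their first cysteine and act through Cxcr2. Cxcl1, Cxcl2 and Cxcl15 belong to them with Cxcl3 and Cxcl5. Cxcl1 differed by -0.15 ± 0.09, Cxcl15 by -0.14 ± 0.06 and Cxcl2 by -0.04 ± 0.07 (SE with the block), and their adjusted p-values with the block were 0.408, 0.302 and 0.826. All 5 ELR ligands had a negative difference, with a median of -0.15, against 52.6% of all genes. This grouping was made after the values were seen, and 1 of the 5 passed the test. Their receptor Cxcr2 differed by 0.10 ± 0.07 (adjusted p = 0.506 with the block). Ppbp, an ELR ligand whose symbol lies outside the family names, lies next to Cxcl5 and differed by -1.19, -0.43 and -0.55 in the pairs (-0.72 ± 0.15, adjusted p = 0.0538 with the block). Pf4, the next gene, lacks ELR and differed by -0.08.

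**Figure D2:**
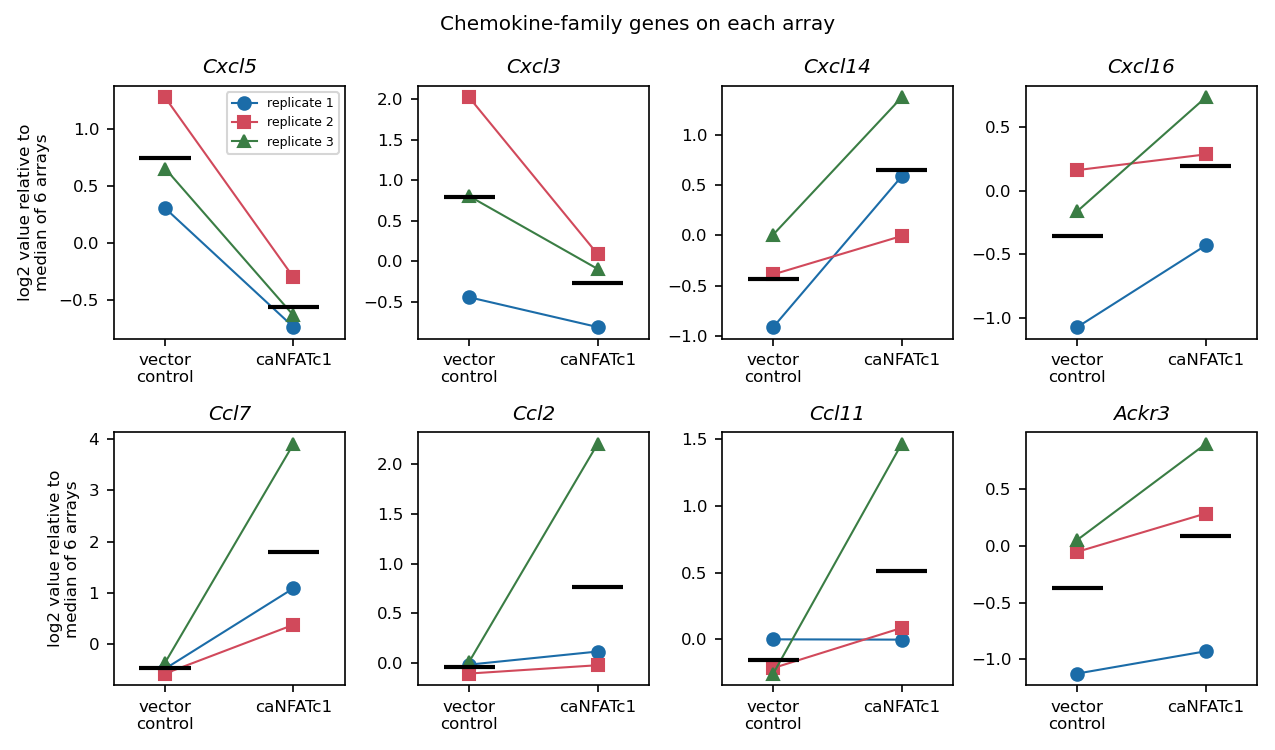
Log2 value, relative to the gene's median over the 6 arrays, of 8 ligands and receptors (y axes differ between panels); lines join arrays of the same replicate number and black bars are group means. All 3 lines of Cxcl5 fall without overlap of the groups, those of Cxcl14 rise by unequal amounts, and Ccl2 and Ccl11 are high on the array of caNFATc1 replicate 3.

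Cxcl14, a CXC chemokine made by resting epithelia and often lost in carcinomas, was higher in caNFATc1 cells. Its values were -0.91, -0.39 and 0.01 in the controls and 0.58, -0.01 and 1.37 with caNFATc1. It was higher in each pair, by 1.497, 0.38 and 1.36, while caNFATc1 replicate 2 lay slightly below control replicate 3, so that the groups just overlapped. The difference was 1.08 ± 0.22 (adjusted p = 0.0486 with the block, 0.334 without), a 2.11-fold higher value. This call lay at the threshold: it was lost with the block when pair 1 or pair 3 was left out (adjusted p = 0.127 and 0.058), and it strengthened without pair 2 (1.43, adjusted p = 0.00342).

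Cxcl16, a membrane-bound ligand that is shed by proteases, and its receptor Cxcr6 both had positive differences in all pairs. Cxcl16 stood at -1.07, 0.16 and -0.16 in the controls and at -0.43, 0.29 and 0.73 with caNFATc1. It differed by 0.55 ± 0.15 (adjusted p = 0.0953 with the block) and passed only when pair 2 was left out (0.77, adjusted p = 0.0247). Without pair 3 it was 0.38 with the block, and without control replicate 1 it was 0.20 with no block. Cxcr6 differed by 0.17 ± 0.08 (adjusted p = 0.324 with the block), by 0.05, 0.36 and 0.10 in the pairs.

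Other CXC ligands stayed near 0. Cxcl12, a ligand of Cxcr4 that guides many cell types, differed by 0.00 ± 0.06 (SE with the block), with pairs between -0.02 and 0.03. The interferon-induced ligand Cxcl10 differed by -0.09 ± 0.07 (adjusted p = 0.519 with the block), and Cxcl17 by -0.08. The CX3C ligand Cx3cl1, which also acts as an adhesion molecule, differed by -0.09 ± 0.11, with -0.37, -0.06 and 0.17 in the pairs.

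Among CC ligands the largest positive differences lay in neighbouring genes. Ccl7, which attracts monocytes, stood at -0.49, -0.59 and -0.37 in the controls and at 1.08, 0.37 and 3.91 with caNFATc1. Every caNFATc1 array lay above every control array, but caNFATc1 replicate 3 lay far above the other caNFATc1 arrays. The difference was 2.27 ± 0.61 (adjusted p = 0.0958 with the block, 0.368 without). Without pair 3 it was smaller, 1.26, and passed with the block (adjusted p = 0.00421). The 2 remaining pairs, 1.57 and 0.95, lay closer together than either lay to pair 3, at 4.28.

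Ccl2, the main ligand of the monocyte receptor Ccr2, showed its difference on 1 array. It stood at -0.01, -0.10 and 0.01 in the controls and at 0.12, -0.02 and 2.20 with caNFATc1. The pair differences of 0.13, 0.08 and 2.19 averaged 0.80 ± 0.41 (adjusted p = 0.352 with the block). Without caNFATc1 replicate 3 the difference was 0.08. Ccl11 (eotaxin), which attracts eosinophils through Ccr3, behaved likewise, with -0.002, 0.30 and 1.72 in the pairs, a mean of 0.67 ± 0.32 and 0.20 without caNFATc1 replicate 3. Ccl2, Ccl7 and Ccl11 lie next to each other on chromosome 11. The following genes there, Ccl12, Ccl8 and Ccl1, differed by 0.02, 0.12 and -0.10.

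Several fibroblast markers were high on the array of caNFATc1 replicate 3 as well. Of 10 such markers the median difference was -0.14, 0.06 and 0.39 in pairs 1, 2 and 3, and their median value on the caNFATc1 arrays was -0.05, 0.02 and 0.32. On the control arrays it was 0.08, -0.04 and -0.05. Col1a1 differed by -0.16, 0.28 and 1.31 and Pdgfra by 0.37, 0.65 and 1.47. Of the 10, 6 had a positive difference (47.4% of all genes) and 4 a negative one. With the block 1 of the 10 passed (10%, against 6.11% of all genes). This was Col3a1, which rose in every pair, by 1.33, 0.62 and 1.67 (1.204 ± 0.19, adjusted p = 0.0296). Its rise was thus not confined to replicate 3. Fbln1 differed by -0.41, -0.49 and 0.25 in the pairs and Col1a2 by -0.15, -0.18 and 0.47. The small proteoglycan genes Dcn and Lum differed by 0.31 and 0.01 in pair 3. The part of fibroblasts in the values of Ccl2, Ccl7 and Ccl11 was not tested. In such cultures more cells of a type and more RNA per cell cannot be told apart.

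**Figure D3:**
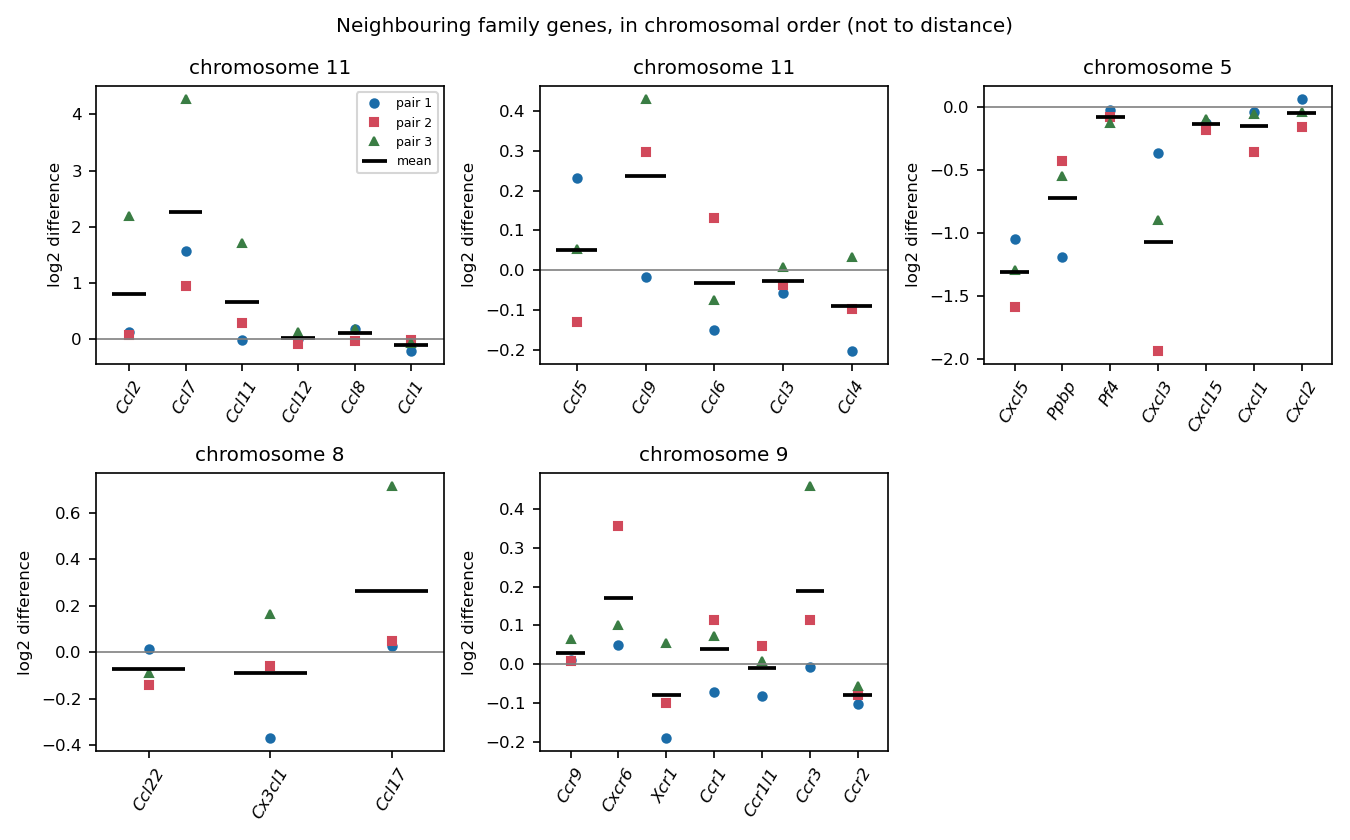
Log2 difference (y axis, scales differ between panels) of family genes that lie near each other, in their order on the chromosome; points are the 3 pairs and black bars their mean. The positive differences of Ccl2, Ccl7 and Ccl11 are largest in pair 3, and Cxcl5, Ppbp and Cxcl3 lie below 0 in all pairs while Pf4 between them is near 0.

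Other CC ligands differed less. Ccl17 is a ligand of Ccr4, a chemokine receptor of T cells. It differed by 0.26 ± 0.15 (adjusted p = 0.386 with the block), of which pair 3 gave 0.72 and the other pairs 0.03 and 0.05. Ccl9 differed by 0.24 ± 0.10 (adjusted p = 0.253 with the block) and Ccl25, a gut and thymus ligand, by 0.11 ± 0.07. Ccl20, an epithelial ligand that attracts cells with Ccr6, differed by 0.04 ± 0.07, and Ccl5, which attracts T cells and monocytes, by 0.05 ± 0.09. Ccl26 and Ccl24, ligands of Ccr3, differed by -0.14 ± 0.07 and -0.09 ± 0.07. The skin ligand Ccl27 had 3 array rows, each shared by several gene copies, with differences between 0.10 and 0.20, and 4 rows shared by Ccl21 copies differed by 0.02. None of these 7 shared rows passed with every row tested (adjusted p between 0.353 and 0.925 with the block), and they are not among the 55 genes.

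None of the 17 signalling receptors passed limma with the block (6.11% of all genes) or without it (0.216% of all genes). An unadjusted p under 0.05 was found for 0 of them with the block (21.5% of all genes) and 0 without (12.7% of all genes). Their differences ran from -0.16 to 0.19, with 8 positive and 9 negative. Cxcr4, the receptor of Cxcl12, differed by -0.16 ± 0.12, of which pair 1 gave -0.52 and pairs 2 and 3 gave -0.001 and 0.04. The fractalkine receptor Cx3cr1 likewise differed in pair 1, by -0.55, and by -0.04 and 0.16 in the others. Ccr3 differed by 0.19 ± 0.10, the monocyte receptor Ccr2 by -0.08 ± 0.06, the lymph node homing receptor Ccr7 by 0.01 ± 0.14, Ccr6 by -0.03 ± 0.07 and Ccr10, the receptor of Ccl27, by -0.02 ± 0.07 (SE with the block). Several of these receptors are found on leukocytes. Of the markers of each leukocyte type listed here, limma called 0 with the block (6.11% of all genes) and 0 without it (0.216%). With the block, between 0 and 2 of each list had an unadjusted p under 0.05 (21.5% of all genes). Without it, 0 or 1 did (12.7% of all genes). Lists this short, of 8 to 10 markers, can hold 0 called genes at those shares. The median difference was -0.12 for 9 T cell markers, -0.04 for 9 of Langerhans and dendritic cells, -0.02 for 9 of macrophages, -0.04 for 10 of neutrophils and 0.03 for 8 of mast cells. Medians for markers of melanocytes and endothelium (8 each) were -0.07 and -0.04, and that of 12 keratinocyte markers was -0.05. Of these 12, 4 had a positive and 8 a negative difference (66.7% negative, against 52.6% of all genes). With the block 1 was called (8.33%, against 6.11% of all genes). This was Trp63, the transcription factor gene of basal keratinocytes, which rose (0.42 ± 0.08, adjusted p = 0.0444). Krt15 and Epcam were lower in all pairs (-0.58 ± 0.18 and -0.26 ± 0.08) but were not called (adjusted p = 0.132 for each with the block). Dsp was higher in all pairs (0.32 ± 0.09) and was not called either (adjusted p = 0.108 with the block). Of the 12, all 3 pairs were positive in 2 and negative in 3.

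Among the 4 atypical receptors, Ackr3, which takes up Cxcl12 and Cxcl11, had the largest difference. It stood at -1.12, -0.05 and 0.05 in the controls and at -0.93, 0.28 and 0.90 with caNFATc1. Replicate 1 was low in both groups, so the groups overlapped although each pair was positive (0.20, 0.34 and 0.84). The difference of 0.46 ± 0.13 did not pass (adjusted p = 0.111 with the block, 0.812 without). Without the block it was 0.05 when caNFATc1 replicate 3 was left out, 0.08 without control replicate 1 and 0.96 without caNFATc1 replicate 1. Ackr2, which removes inflammatory CC ligands, differed by 0.22 ± 0.10 (adjusted p = 0.262 with the block), and Ackr4, which removes Ccl19, Ccl21 and Ccl25, by 0.06 ± 0.08.

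The cultures themselves differed in several of these genes. The range over the 3 control arrays exceeded 0.5 in 7 of the 55 genes (12.7%, against 12.0% of all genes): Cxcl3, Cxcl16, Ackr3, Cxcl5, Cxcl14, Cx3cl1 and Cx3cr1. For Cxcl5 the groups accounted for 81.2% of the variation over the 6 arrays and the replicate number for 16.5%. The order was turned for Ackr3, where the groups accounted for 10.9% and the replicate number for 85.0%, and for Cxcl16, with 23.3% and 68.8%. Cxcl14 lay between them, with 55.9% and 32.2%. For Ccl2 and Ccl11, 35.4% and 40.9% of the variation belonged to neither. These are plain shares of the sum of squares. With 2 groups and 3 replicate numbers, unrelated values would also give the groups the smallest share on average.

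**Figure D4:**
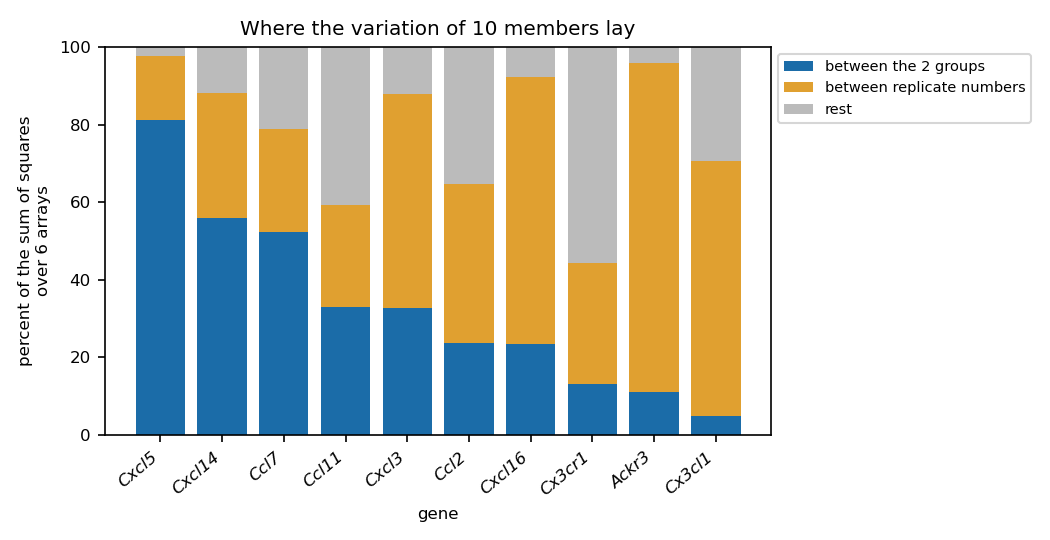
Percent of the sum of squares over the 6 arrays (y axis) that lay between the 2 groups, between the 3 replicate numbers, or in neither, for the 10 genes with a difference or a control range over 0.5. The group share is highest in Cxcl5 (81.2%), and the replicate share is highest in Ackr3 (85.0%).

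The groups did not overlap in 8 of the 55 genes (14.5%), against 18.7% of all genes. In 2 of the 55 genes, Ccl7 and Cxcr6, every caNFATc1 array lay above every control array (9.64% of all genes), and in 6, Cxcl5, Cxcl1, Cxcl15, Cxcl17, Ccl24 and Ccr2, every caNFATc1 array lay below (9.09% of all genes). All 3 pairs were positive in 9 genes (21.6% of all genes) and negative in 10 (21.3% of all genes). The 19 genes not named by value above or below had differences between -0.15 and 0.17, with 7 positive and 12 negative.

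Genes that control the switching on of chemokines were examined as a list of cytokines, cytokine and Toll-like receptors, signalling adaptors and transcription factors, of which 39 of 42 were measured. The list also holds inhibitors of NF-kappa-B such as Nfkbia. With the block 5 rose and 2 fell, which is 17.9% of the list against 6.11% of all genes, and the median difference was 0.02. These genes also varied more between control cultures: the control range exceeded 0.5 in 28.2% of the list, against 12.0% of all genes. Tnf, an inducer of many chemokine genes, differed by 1.37, 0.73 and 1.30 in the pairs (1.13 ± 0.13, adjusted p = 0.0154 with the block). Its receptor gene Tnfrsf1a rose by 1.28, 1.15 and 1.10 (1.18 ± 0.07, adjusted p = 0.00382 with the block and 0.0113 without). Nfkbia, the inhibitor that NF-kappa-B itself induces, rose by 0.94 ± 0.08 and Relb by 0.41 ± 0.07 (adjusted p = 0.00715 and 0.0297 with the block). Other NF-kappa-B subunits and regulators of the list were not called and went both ways. Tnfaip3 differed by -0.28 ± 0.09, Rela by -0.10 ± 0.08, Nfkbie by -0.01 ± 0.06, Nfkb2 by 0.05 ± 0.06 and Nfkbiz by 0.28 ± 0.08 (SE with the block). The interferon receptor gene Ifnar1 rose as well, and Il1rl2, the IL-36 receptor, and the transcription factor gene Cebpb fell. Leaving out pair 1, 2 or 3 reduced the count from 7 to 4, 3 and 4 with the block. Tnfrsf1a was the only one called without the block (1 of 39, against 0.216% of all genes). It was lost there when any control array or caNFATc1 replicate 3 was left out.

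Genes of receptor signalling and of chemokine retention followed. Of 39 measured signalling genes (42 listed), 2 rose and 1 fell with the block (7.69%, against 6.11% of all genes), with a median of -0.03. Grk5, a kinase that switches off G protein-coupled receptors, rose by 3.24, 2.13 and 3.26 in the pairs (2.88 ± 0.23, adjusted p = 0.00604 with the block, 0.0548 without). For Jak2 the rise was 0.48 ± 0.08 (block fit, adjusted p = 0.029), and the kinase gene Ptk2b fell by 0.52 ± 0.09 (0.039). Without pair 1 the count fell from 3 to 1, and without pair 2 to 2. Of 30 measured heparan sulfate genes (31 listed), 5 rose and 0 fell with the block (16.7%, against 6.11% of all genes), with a median of 0.09. The control range exceeded 0.5 in 23.3% of the heparan sulfate genes, against 12.0% of all genes. The syndecan gene Sdc4 rose by 0.90 ± 0.07 (block fit, adjusted p = 0.00605), the chain-building enzyme genes Ext1 and Ext2 by 0.82 ± 0.08 and 0.39 ± 0.07 (0.0102 and 0.0418), and Xylt1 and Xylt2, which start the chains, by 0.80 ± 0.12 and 0.40 ± 0.08 (0.0278 and 0.044). Without the block limma called 0 of the signalling and 0 of the heparan sulfate genes (0.216% of all genes). An unadjusted p under 0.05 without the block was found for 3 of 39 and 6 of 30 (12.7% of all genes). With the block and without pair 3 the heparan sulfate count was 3.

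Of 24 measured proteases that trim or shed chemokines (25 listed), 20 lay below 0 (52.6% of all genes) and 4 above, with a median of -0.07 against -0.007 for all genes. Most of these differences were small, with 19 of the 24 under 0.2 (79.2%, against 77.3% of all genes). The negative share of the cell marker lists ran from 37.5% (mast cells) to 80% (neutrophils), so a negative majority was not particular to the proteases. In the block fit 0 rose and 2 fell (8.33%, against 6.11% of all genes). Cpn1, a subunit of carboxypeptidase N, which removes the last residue of peptides, fell by 1.26 ± 0.11, and the urokinase gene Plau fell by 0.53 ± 0.09 (adjusted p = 0.00652 and 0.0303 with the block). Without pair 3 the count was 1. Without the block limma called 0 of 24 (0.216% of all genes), with 2 at an unadjusted p under 0.05 (12.7% of all genes). The 8 further family genes were Pf4, Ppbp, Xcr1, Ccrl2, Cmklr1, Rarres2, Mif and Cklf. Of these, 0 passed limma with the block (6.11% of all genes) or without it (0.216%). An unadjusted p under 0.05 was found for 0 without the block (12.7% of all genes) and for 1 with it (21.5%). Mif, a cytokine that binds Cxcr2 and Cxcr4, differed by 0.06.

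**Figure D5:**
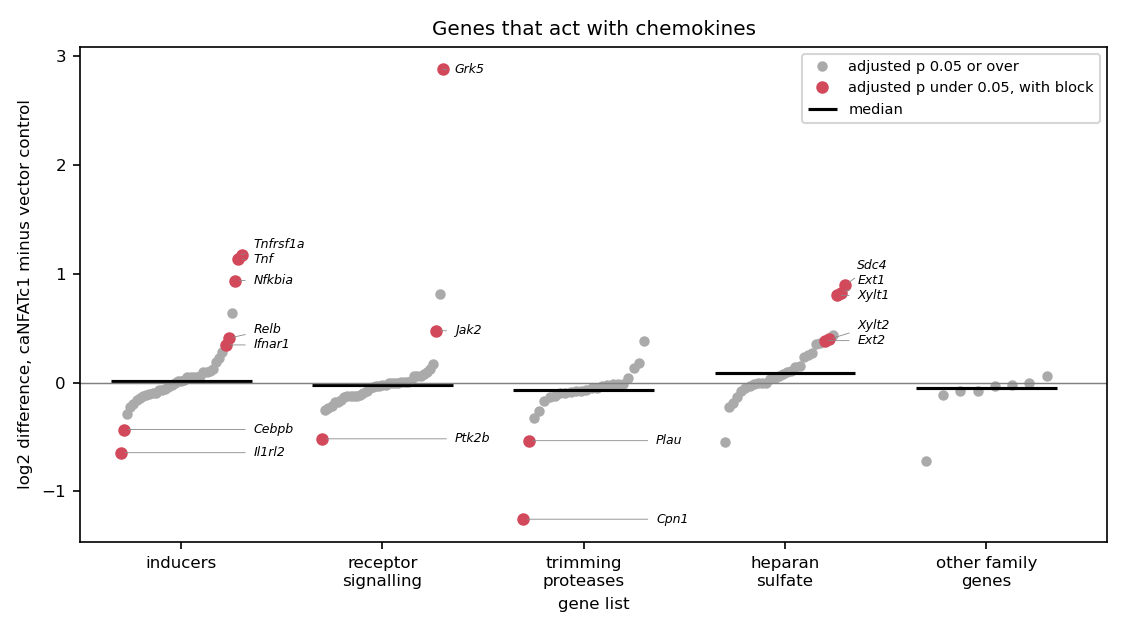
Log2 difference, caNFATc1 minus vector control (y axis), of the genes of 5 lists; red points passed the fit with the replicate block and black bars are medians. Grk5 stands at 2.88, the red points of the heparan sulfate list all lie above 0, and those of the protease list lie below.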

How the data were processed

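RNA of 6 cultures (3 caNFATc1, 3 vector control, grouped and numbered by the sample titles) was measured on 1 single-colour array each. The authors deposited log2 values; per the submitters' processing notes they come from RMA with build mm8. Filters and versions: not given in the sources used here. For all 28815 rows the median was 0 within 1e-06, so the deposited values hold differences and no levels, and depth is limited by the number of arrays. Base 2 was taken because RMA gives it.

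Rows with 1 symbol in the platform annotation (21780; 1605 had several, 5430 were not listed) were averaged per gene, giving 19935 genes. Symbols were checked by Entrez number against RefSeq (GRCm38.p6), with 91 rows not found; no coordinates of the array rows are given. The groups were compared with limma 3.58.1 (R 4.3.3), lmFit and eBayes, 2-sided, with Benjamini-Hochberg adjustment over all genes and a threshold of 0.05. The code was tried on simulated arrays with normal noise and known changes, which held no outlying array and so do not speak to such arrays here. The main fit had group as its only term; a second fit added replicate as a block. Pairing rests on the data: all 3 same-numbered correlations exceeded 0.1. The design text calls the replicates biological.

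The members, lists and naming rule (members past either fit, the 8 largest rises and falls with 1 sign in all pairs, fixed ligands and receptors, up to 4 genes per list) were chosen with earlier results of these data known. Ccl8, Ccl9, Ccl11, Ccl12, Ccr2, Ccr3, Cx3cr1 and Cxcl17 were added after their values were seen, as were list genes beyond 4, genes given as cell markers or neighbours, and Rcan1, Nfatc1 and Xist. Alternatives were the block, each array or pair left out, 2 normalizations, other uses of rows, robust moderation and a plain equal-variance test.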

Additional observations from a re-analysis of the deposited data

How the results depend on the processing

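The replicate block raised the count of called genes most, from 43 to 1219 of all genes, from 0 to 2 chemokine-family genes, from 1 to 7 inducers, from 0 to 3 signalling genes, from 0 to 2 proteases and from 0 to 5 heparan sulfate genes. With the block and 1 pair left out, the counts ran from 711 to 1086 for all genes (711, 743 and 1086 without pair 1, 2 and 3), from 1 to 3 for the chemokine family, from 3 to 4 for inducers, from 1 to 3 for signalling, from 1 to 2 for proteases and from 3 to 6 for heparan sulfate, and were 1 for the 8 further family genes. With the block and every array row tested on its own, chosen after seeing the data, they were 584, 1 (Cxcl5), 3, 1, 1 and 2 in that order of lists, and Cxcl14 was lost (adjusted p = 0.0928).

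Without the block, leaving out 1 array gave 0 to 83 called genes, 0 chemokine-family genes, 0 to 2 inducers and 0 to 1 signalling genes. The count of 0 without control replicate 3 stood beside 2113 genes at an unadjusted p under 0.05. Quantile normalization gave 145 genes (126 higher and 19 lower, against 41 and 2), 2 inducers, 1 signalling and 1 heparan sulfate gene, and the plain equal-variance test gave 0 genes and 0 inducers, with 2125 genes at an unadjusted p under 0.05. The cause was not tested. Median centring, other uses of a gene's rows and robust moderation left between 38 and 44 genes called.

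The median difference of the 55 genes stayed between -0.02 and 0.03. Directions turned only when an array or pair was left out, in 12 of the 36 named genes, all uncalled. Without 1 array, and with the block without 1 pair, the differences ran from -0.00716 to 0.135 and -0.0198 to 0.125 for Ackr4, -0.0127 to 0.0562 and -0.0425 to 0.0706 for Ccl12, -0.0320 to 0.125 and -0.0381 to 0.143 for Ccl5, -0.0772 to 0.0318 and -0.0626 to 0.0176 for Ccr10, and -0.0691 to 0.00428 and -0.0827 to 0.00287 for Ccr6. They ran from -0.0910 to 0.125 and -0.159 to 0.203 for Ccr7, -0.211 to 0.0533 and -0.215 to 0.0529 for Cx3cl1, -0.242 to 0.0206 and -0.294 to 0.0588 for Cx3cr1, and -0.0104 to 0.0194 and -0.0143 to 0.0102 for Cxcl12. With the block alone they turned for Ccl20 (-0.0181 to 0.0721), Cxcl2 (-0.0982 to 0.0124) and Cxcr4 (-0.258 to 0.0211); Ccr7 was -0.0176 without pair 2. The filter on dim rows was not run, because the values keep no level, and signal over background is unknown.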
